A study of Homo sapiens with 2 samples.

Results

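DNA replication and repair genes were followed in S2-013 cells with and without a MEK inhibitor. They were taken by symbol from the platform's probe annotation: 17 gene name stems, such as MCM, GINS, RAD followed by a digit, XRCC and MSH, together with 11 single symbols, such as CDC6, PCNA and TYMS, and with antisense symbols left out. The rule named 58 of the 13763 genes that have a symbol in this annotation, small RNA symbols aside. Genes whose probe sets have no symbol there could not be taken. S2-013 is a subline of the pancreatic cancer cell line SUIT-2, and the labels give its cell type as primary pancreatic cancer. Both samples carried a knockdown of HOXB7, a homeobox transcription factor, and both had been transfected with a plasmid for rescue HOXB7. The first sample was also treated with a MEK inhibitor, and the second, the control, was not. The sources used here name neither the inhibitor nor its dose or exposure time, and do not say whether the knockdown cells were 1 clone. Parental cells and knockdown cells without the plasmid were not analysed here, so the comparison is about the inhibitor in rescued cells alone.

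Each condition was measured on 1 Affymetrix whole-transcript array from 100 ng of total RNA. There is therefore no replicate error, no test and no p-value for any value below, and the number of arrays limits the precision. Values are on a log2 scale, as inferred from their range, so a difference of 1 is a 2-fold change, and each difference is the inhibitor array minus the control array. A gene counted as measured when at least 1 of its values was 4.78 or more. This floor is the median, over all genes, of the mean of both arrays. Of the 58 genes 48 passed it, out of 7164 genes in all, and 47 passed in both arrays. The gene just inside was XRCC3 (4.70 with the inhibitor, 4.88 without), and those just outside were RAD52 (4.62 and 4.04) and MLH3 (4.61 and 4.45). Probe sets that read the same gene gave differences that were typically 0.16 apart (median of 443 pairs from 145 genes), and 95% of the pairs lay within 0.80. Some genes gave several pairs, so the pairs are not independent. Genes with identical copies of a probe set were left out with all their pairs, which concerned 45 genes. The disagreement between probe sets covers probe error only, not the variation between cultures. Of the epithelial and ductal carcinoma markers all 8 that were named passed the floor, with EPCAM (10.5 and 10.5) and KRT19 (8.87 and 8.94) close to equal. SOX9 in that list read 6.79 under the inhibitor and 8.03 in the control, CLDN4 read 5.85 and 4.90, and KRT7 read 4.91 and 4.56, below the floor in the control. The fibroblast markers DCN and LUM were below it. Of the leukocyte, endothelial, acinar and endocrine markers CD68, TYROBP, CLDN5 and CTRC passed, CD68 at 8.53 and 8.95 and the others at 5.30 or less. TYROBP (4.46 and 4.85) passed only in the control, and CTRC (4.96 and 4.66) only under the inhibitor. In the same arrays the ERK feedback gene DUSP6 read 5.27 under the inhibitor and 6.53 in the control, and SPRY4 read 4.77 and 6.92.

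Replication starts from origins that are licensed in G1 phase, when CDC6 and CDT1 load the MCM helicase onto DNA. In S phase CDC45 and the GINS complex join MCM to form the active CMG helicase, and polymerases held by the PCNA clamp copy the unwound strands. Many of these genes are transcribed late in G1 by E2F factors, which are freed when cyclin-dependent kinases phosphorylate the retinoblastoma protein. ERK signalling feeds into that step through cyclin D1. Repair genes act on mismatches, bulky lesions, single-strand and double-strand breaks, and many of them are transcribed outside S phase too. In bulk RNA, fewer cells in S phase and less RNA of these genes per cell cannot be told apart.

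None of the 48 measured genes differed by 1.5-fold between the arrays in either direction. Over all 7164 genes above the floor 8.22% did, and 1.68% differed by at least 2-fold. After subtraction of a loess trend 1 of the 48, RAD51AP1, was past 1.5-fold at -0.60. The values spanned -0.55 (RAD51AP1) to 0.45 (RAD1). Of the 48 genes 28 (58.3%) read lower under the inhibitor and 20 higher, with a median of -0.036. Over all genes 46.1% read lower and 53.9% higher, with a median of 0.026. The size of the difference without its sign had a median of 0.13 in the replication and repair genes and 0.19 in all genes, and 90% of genes lay within 0.39 and 0.53. For genes above the 75th percentile of the mean level, 34 of them replication and repair genes, the medians of that size were 0.11 and 0.18. In 28 of the 48 genes (58.3%) the difference was smaller than the median disagreement of 0.16 between probe sets, as it was in 44.5% of all genes. Every one of the 48 was below the 0.80 that bounds 95% of the disagreements. This sets them little apart, since only 8.22% of all genes reached even 1.5-fold, which is 0.585 on the log2 scale.

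**Figure D1:**
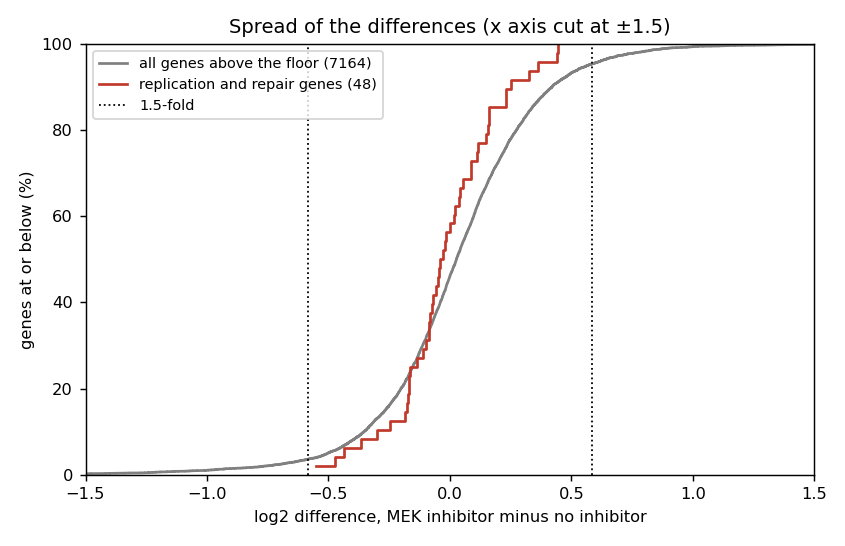
Cumulative share of genes (%, y axis) against the log2 difference of the MEK inhibitor array minus the control array (x axis) for all 7164 genes above the floor (grey) and the 48 replication and repair genes (red), with dotted lines at 1.5-fold. The red curve runs from -0.55 to 0.45, inside both dotted lines, while the grey curve extends past them.

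All 15 named genes of origin licensing and the CMG helicase were measured, 9 lower and 6 higher, with a median of -0.08. The share of lower genes among all genes was 46.1%. The licensing factor CDC6, an ATPase that binds the origin recognition complex, read 8.45 under the inhibitor and 8.34 in the control. Its partner CDT1 read 7.35 and 7.26. Both licensing factors read slightly higher in the inhibitor array, by 0.12 and 0.09. These sizes are below the 0.16 by which probe sets of a gene typically disagreed.

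The MCM2 to MCM7 proteins form a ring of 6 different subunits that unwinds DNA, and they are needed in equal numbers. MCM2 read 8.03 in both arrays, a difference of -0.0006. MCM3 read 8.80 under the inhibitor and 8.88 in the control, and MCM4 read 8.27 and 8.43. MCM5 read 9.76 and 9.61. The subunits thus went both ways. MCM6 had the largest difference of the ring, 0.23, reading 8.62 with the inhibitor and 8.39 without it. MCM7 read 8.84 and 8.95. Of the 6 subunits 4 were lower and 2 higher, all between -0.17 and 0.23, with a median of -0.043 and a mean of 0.0026. MCMBP, which binds free MCM subunits, read 8.36 and 8.53, a difference of -0.17.

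MCM10, which helps activate the loaded helicase, had the lowest value of the licensing group. It read 7.19 under the inhibitor and 7.63 in the control, a difference of -0.44, and 6.81% of all genes above the floor had a lower one. CDC45 read 7.09 and 7.17. The 4 subunits of the GINS complex did not move as one. GINS2 read 7.22 under the inhibitor and 6.85 in the control, a difference of 0.36. GINS3 read 7.21 and 7.57, a difference of -0.36 of nearly the same size and the opposite sign. GINS1 lay with GINS2 (6.35 and 6.19), whereas GINS4 lay with GINS3 (6.10 and 6.35). A second GINS4 probe set read 2.40 and 2.95, below the floor in both arrays. The median of the complex was -0.043, and its range was wider than that of the MCM ring. Even GINS2 and GINS3 lay less than 0.80 apart, the bound of 95% of the disagreements between probe sets of a gene. Whether the subunits differ beyond probe error was not tested.

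The promoters of these genes were searched for the E2F motif, because the genes of the licensing group are textbook E2F targets. The letters searched were TTTCCCGC, TTTCGCGC, TTTGCCGC and TTTGGCGC on both strands, from 250 bases before to 50 bases after each gene's start, in the RefSeq promoter sequences of GRCh38.p14. The table held 49 of the 58 genes. MCM4, MCM5 and GINS4 of the licensing group were among those it lacked, so their promoters were not searched. A match was found in 17 of the 49 (34.7%). This compares with 908 of all 27305 promoters (3.33%) and 340 of 5847 promoters of genes above the floor (5.81%). All 17 belonged to measured genes, and 15 of them had a match that began within 60 bases of the start. Among genes of licensing, clamp, repriming and nucleotide supply 12 of 18 promoters (66.7%) held a match, and among the other measured members 5 of 23 (21.7%): MCM8, MSH3, MSH6, XRCC2 and XRCC6.

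Stretches from 170 bases before to 30 after the start are shown for 5 genes, with every E2F match in capitals. MCM2 and MCM6 stand for the ring, and in both of them matches on opposite strands overlap. CDC6 stands for the licensing factors. GINS2 and GINS3 are the subunits with opposite differences, and both hold the letters GCGGGAAA close to the start.
MCM2 (chr3:127598241-127598440, plus strand): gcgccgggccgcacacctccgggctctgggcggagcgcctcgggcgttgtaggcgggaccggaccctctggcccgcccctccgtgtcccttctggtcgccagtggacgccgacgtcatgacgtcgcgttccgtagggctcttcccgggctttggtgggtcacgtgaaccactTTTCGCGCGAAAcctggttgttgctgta
MCM6 (chr2:135876414-135876613, minus strand): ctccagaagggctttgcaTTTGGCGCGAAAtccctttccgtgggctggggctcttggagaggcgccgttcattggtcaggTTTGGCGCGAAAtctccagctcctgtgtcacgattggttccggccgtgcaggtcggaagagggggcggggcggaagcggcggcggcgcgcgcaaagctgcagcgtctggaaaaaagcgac
CDC6 (chr17:40287709-40287908, plus strand): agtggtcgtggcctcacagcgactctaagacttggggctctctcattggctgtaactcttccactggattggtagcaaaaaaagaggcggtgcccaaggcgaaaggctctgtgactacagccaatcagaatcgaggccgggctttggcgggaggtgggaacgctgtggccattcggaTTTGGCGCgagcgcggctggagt
GINS2 (chr16:85688925-85689124, minus strand): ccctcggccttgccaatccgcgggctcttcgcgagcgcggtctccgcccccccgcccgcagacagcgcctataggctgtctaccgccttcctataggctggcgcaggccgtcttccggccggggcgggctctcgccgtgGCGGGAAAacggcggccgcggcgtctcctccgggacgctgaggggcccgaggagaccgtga
GINS3 (chr16:58392301-58392500, plus strand): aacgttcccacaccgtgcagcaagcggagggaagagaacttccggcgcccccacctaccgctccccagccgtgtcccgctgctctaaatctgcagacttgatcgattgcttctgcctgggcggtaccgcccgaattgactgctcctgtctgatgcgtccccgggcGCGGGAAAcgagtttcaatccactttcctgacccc

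MCM6 held 4 matches in 2 overlapping pairs, the most among the 49 promoters searched, beside its difference of 0.23. MCM2 held 2, beside a difference of -0.0006. Over all 17 members with a match 10 were lower and 7 higher, with a median of -0.029 and a range from -0.36 to 0.36. The 24 measured members with a promoter and no match had 15 lower and 9 higher, with a median of -0.053 and a range from -0.55 to 0.45. Over all genes above the floor the medians were 0.026 with a match (340 genes) and 0.030 without one (5507 genes). A match describes these letters only and does not show that a factor binds there.

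PCNA, the sliding clamp, read 8.84 under the inhibitor and 8.81 in the control, a difference of 0.036. PRIMPOL, which restarts stalled forks by repriming, read 4.995 and 5.017. The stems RFC, RPA, ORC, POLA, POLD, POLE, LIG and ERCC and the symbols BRCA1, BRCA2 and BLM matched no probe set named here, so the replicative polymerases, the clamp loader and the single-strand binding protein were not analysed here. The only FANC symbol was FANCD2OS, a gene on the strand opposite FANCD2, which read 2.92 and 2.81.

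The 4 genes of nucleotide supply and maintenance methylation all read lower, as did 46.1% of all genes. None was lower by more than 0.18, and the median was -0.11. RRM2, the S-phase-limited subunit of ribonucleotide reductase, read 8.36 under the inhibitor and 8.54 in the control. RRM1, the large subunit, read 8.17 and 8.26. Both subunits were lower, by 0.18 and 0.09 on the log2 scale. Thymidylate synthase (TYMS), which makes the thymidine nucleotide, read 8.76 and 8.81. UHRF1, which brings the maintenance methyltransferase to newly copied DNA, read 7.64 and 7.78. Of these differences only that of RRM2 exceeded the 0.16 by which probe sets of a gene typically disagreed. Among all genes 44.5% had a difference smaller than that.

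**Figure D2:**
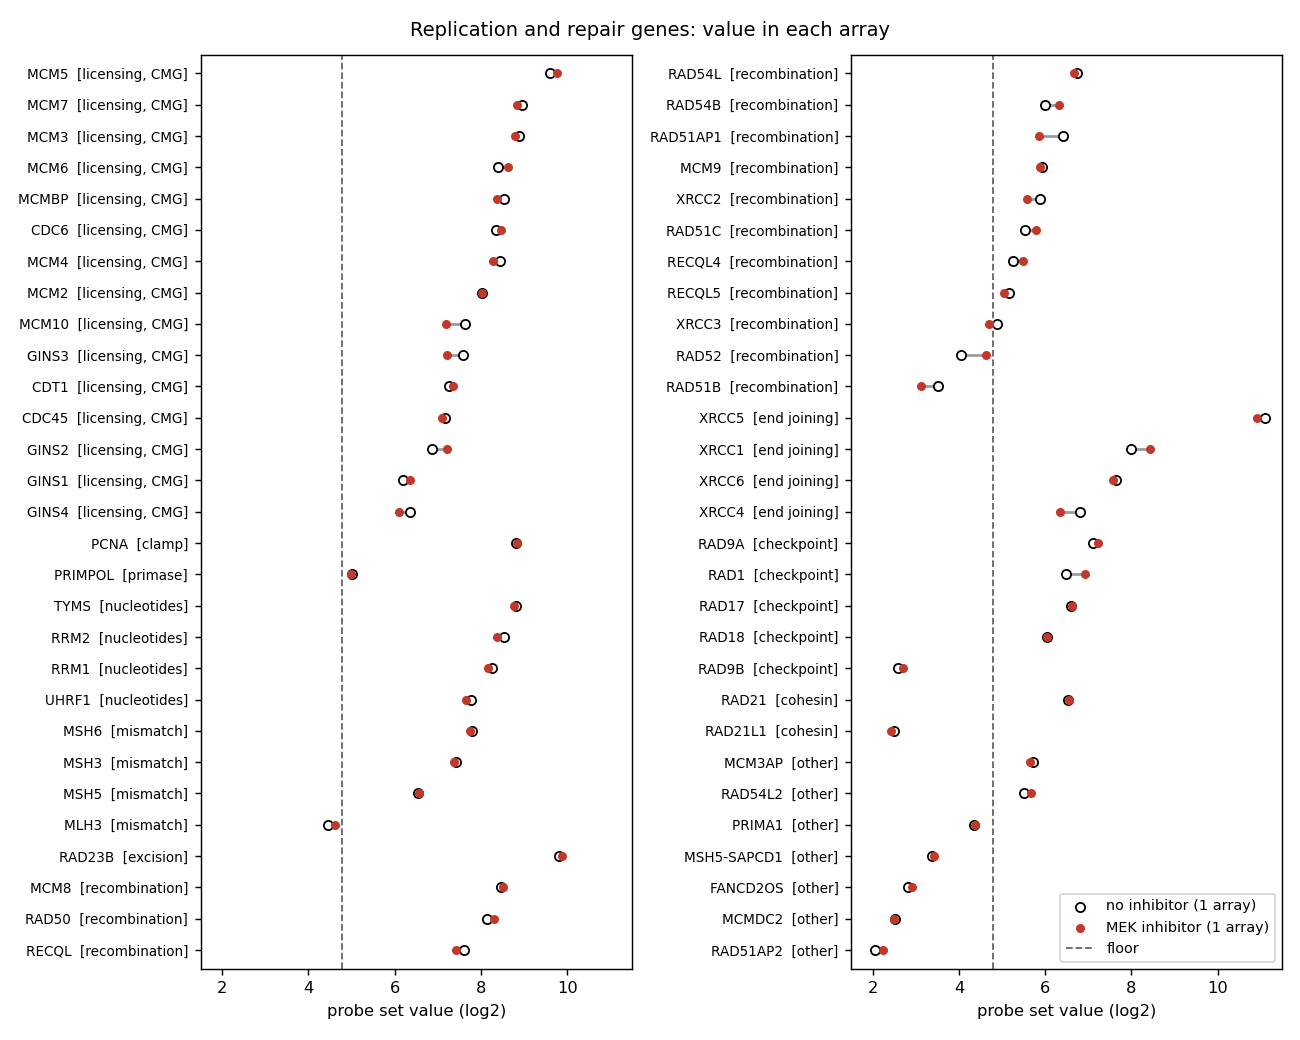
Log2 probe set value (x axis) of each of the 58 genes in the control array (open circles) and the MEK inhibitor array (red), joined by a line, with the role of each gene in brackets and the floor of 4.78 dashed. In 28 of the 48 genes above the floor the circles are less than 0.16 apart, and the longest lines above the floor belong to RAD51AP1, XRCC4, RAD1, XRCC1 and MCM10.

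Mismatch repair genes were close to 0 in all 3 measured members. MSH6, a subunit of the complex that recognises single mismatches, read 7.74 under the inhibitor and 7.78 in the control. MSH3, its counterpart for larger loops, read 7.38 and 7.41. MSH5, a meiotic homologue, read 6.56 and 6.54, whereas its second probe set read 5.94 and 6.20, so that the probe sets gave 0.015 and -0.27. The first of these turned to -0.011 when the median difference of all genes was subtracted. The readthrough gene MSH5-SAPCD1 had 5 probe sets, all below the floor. RAD23B, which binds the damage sensor XPC in nucleotide excision repair, read 9.88 and 9.80.

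Homologous recombination and RecQ helicase genes had 12 of 14 members measured, 7 lower and 5 higher, with a median of -0.06. The share of lower genes among all genes was 46.1%. RAD51AP1, a recombination accessory factor, had the lowest value of all 48 genes. It read 5.85 under the inhibitor and 6.40 in the control, a difference of -0.55, and 4.01% of all genes above the floor had a lower one. XRCC2, XRCC3 and RAD51C, all recombination genes, did not share a direction. XRCC2 read 5.57 and 5.87, and XRCC3, next to the floor, read 4.70 and 4.88, while RAD51C read 5.78 and 5.53. Their differences were -0.30, -0.18 and 0.25. RAD51B was below the floor in both arrays (3.11 and 3.505).

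The RAD54 motor proteins, which remodel chromatin during strand invasion, also differed from each other. RAD54B read 6.33 under the inhibitor and 6.003 in the control, a difference of 0.32. RAD54L read 6.67 and 6.74. RAD50, a subunit of the MRE11 complex that holds broken ends, read 8.30 and 8.14. RAD50 and RAD54B thus read higher in the inhibitor array and RAD54L lower by 0.07 on the log2 scale. Of these only the difference of RAD54B exceeded the median disagreement between probe sets of a gene. The RecQ helicases unwind recombination intermediates and stalled forks. RECQL read 7.43 and 7.60, RECQL5 read 5.05 and 5.15, and RECQL4 read 5.48 and 5.25. MCM8 and MCM9, which form a helicase separate from the replicative ring, differed by 0.05 and -0.05. RAD52, which pairs single strands, gave the highest value of all 58 genes, 0.57, from values below the floor in both arrays, so this size is not reliable.

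In the role group of end joining and single-strand break repair, made up of XRCC1, XRCC4, XRCC5 and XRCC6, 3 genes were lower and 1 higher. The share of lower genes among all genes was 46.1%. XRCC4, the partner of DNA ligase IV in end joining, read 6.34 under the inhibitor and 6.81 in the control, a difference of -0.47. XRCC1, the scaffold of single-strand break repair, read 8.42 and 7.98, a difference of 0.44. The Ku subunits, which bind broken ends together as one dimer, lay between them. XRCC5 (Ku80) read 10.9 and 11.1, and XRCC6 (Ku70) read 7.58 and 7.65, so both partners of the dimer read lower, by 0.17 and 0.08 on the log2 scale. That of XRCC6 is below the 0.16 by which probe sets of a gene typically disagreed.

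Of 4 measured checkpoint and post-replication genes 3 read higher, with a median of 0.08, although RAD17 turned to -0.0052 after subtraction of a loess trend. The share of higher genes among all genes was 53.9%. RAD1 forms the clamp that activates the ATR kinase together with RAD9A and HUS1. RAD1 read 6.92 under the inhibitor and 6.47 in the control, a difference of 0.45, the highest among the 48 genes. Its partner RAD9A read 7.22 and 7.10, and RAD17, which loads this clamp, read 6.63 and 6.59. RAD18, the ubiquitin ligase that marks PCNA at stalled forks, read 6.03 and 6.05. Only RAD1 in this group differed by more than 0.16, the median disagreement between probe sets. Among all genes 44.5% had a difference smaller than that. RAD9B, a testis-expressed form of RAD9, was below the floor.

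Some symbols taken by the rule were placed outside the replication and repair groups. RAD21, the cleavable ring subunit of cohesin, read 6.55 and 6.53. MCM3AP, an mRNA export scaffold, read 5.66 and 5.71, and RAD54L2, a helicase-like regulator of nuclear receptors, read 5.68 and 5.51. PRIMA1, a membrane anchor of acetylcholinesterase, and the germ cell genes RAD21L1, MCMDC2 and RAD51AP2 were below the floor. Of the 7 symbols placed outside the replication, repair and cohesin groups only MCM3AP and RAD54L2 were measured. Without them the median over 46 measured genes was -0.036. It could not change, because MCM3AP lay below the median and RAD54L2 above it.

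**Figure D3:**
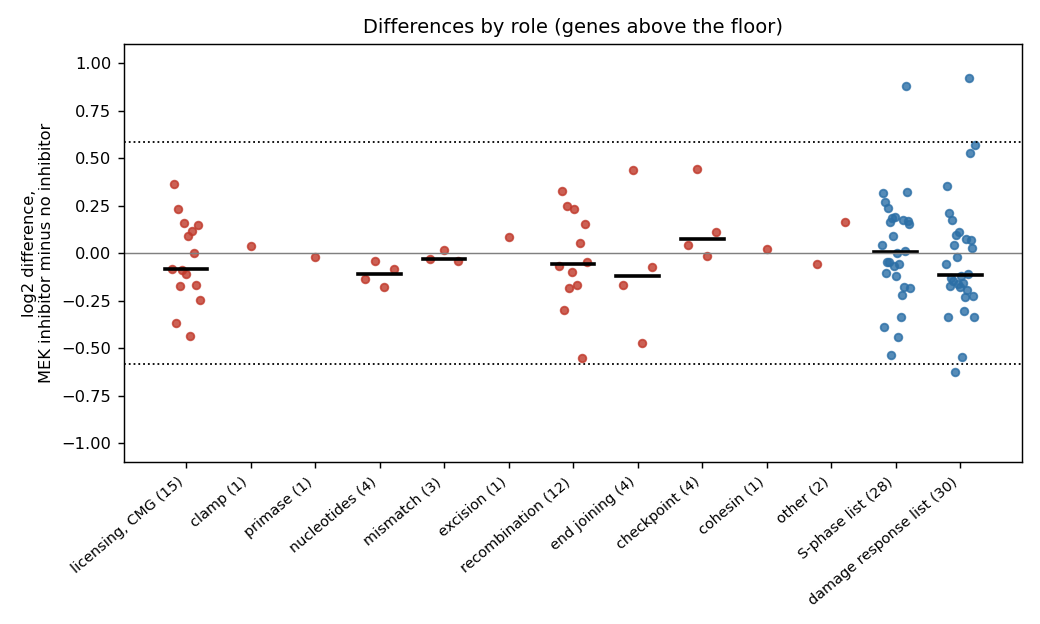
Log2 difference of the MEK inhibitor array minus the control array (y axis) for each gene above the floor, by role (red, number of genes in brackets) and for lists of other S-phase and damage response genes (blue), with bars at the median for groups of 3 or more and dotted lines at 1.5-fold. All red points lie between -0.55 and 0.45, and the only points past the dotted lines are CDK2 and MGMT above and TOP1 below.

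Further genes of S phase, outside the symbol rule, were described as a list. Of 31 named on the array 28 were measured, 14 lower and 14 higher, with a median of 0.0049, and 1 was at least 1.5-fold higher (4.62% of all genes) and none at least 1.5-fold lower (3.60%). That gene was CDK2, the kinase that drives entry into S phase, which read 9.64 under the inhibitor and 8.76 in the control, 1.84-fold higher. The E2F partner gene TFDP1 read 6.68 and 7.22, a difference of -0.53, and the activator E2F3 read 5.29 and 5.74, a difference of -0.44. CDC25A, the phosphatase that activates CDK2, read 6.22 and 6.61. E2F1 differed by -0.12, and the cyclin genes CCNE1 by -0.05, CCNE2 by 0.27 and CCNA2 by -0.33. The retinoblastoma gene RB1 differed by 0.32, the checkpoint adaptor gene CLSPN by 0.31, and CDC7, the kinase that fires licensed origins, by 0.18. E2F motif letters were present in 10 of the 26 promoters of this list (38.5%). The share was 3.33% over all promoters and 5.81% for genes above the floor.

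Of 32 named genes on the list of further damage response genes 30 were measured, 18 lower and 12 higher, with a median of -0.11, and 1 passed 1.5-fold in each direction, against 3.60% lower and 4.62% higher over all genes. MGMT, which removes methyl groups from guanine, read 5.08 under the inhibitor and 4.16 in the control, 1.89-fold higher, starting below the floor. TOP1, the topoisomerase that relieves supercoils ahead of the fork, read 10.1 and 10.7, 1.54-fold lower. EME1, a subunit of a nuclease that cuts joint molecules, read 5.46 and 4.89, and MAD2L2, a subunit of the translesion polymerase zeta, read 5.37 and 5.92. PARP2, a sensor of single-strand breaks like the better known PARP1, read 6.65 and 6.13, while PARP1 itself differed by 0.10. The kinase genes ATR and CHEK1 differed by -0.23 and -0.06. In this list 1 of the 31 promoters (3.23%) held the E2F letters, against 3.33% of all promoters and 5.81% for genes above the floor.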

How the data were processed

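Total RNA of 2 cultures was measured on Affymetrix arrays, 1 per condition, and groups come from the sample titles. The authors deposited 1 value per probe set on what their range shows to be a log2 scale. Per the submitters' processing notes, Affymetrix Expression Console 1.3 was used; the sources used here do not give its settings. Array medians were 3.46 and 3.49, so values were used as deposited.

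Of 53617 probe sets 16098 had a gene symbol in the platform annotation. Small RNA symbols (MIR, SCARNA) were set aside, and the probe set with the highest mean represented each gene. Thresholds of 1.5-fold and 2-fold were used for counts. Any member could be given by its values; the rule asked for the MCM ring, the 10 highest and 10 lowest differences, up to 4 largest per role, and members with several probe sets. From the other lists up to 4 and those past 1.5-fold are named, with a few further genes chosen after their values were seen. The members and lists were chosen with earlier results of these data known. Of 2703 pairs of overlapping promoters on opposite strands all agreed in sequence. Alternatives were median and loess scaling, no filter, a 75th percentile filter, averaged probe sets and omission of the most extreme member. The procedure was tested on simulated data. Python 3.11.15, numpy 2.4.6, pandas 2.3.3, statsmodels 0.14.6 and matplotlib 3.10.9 were used.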

Additional observations from a re-analysis of the deposited data

How the results depend on the processing

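No paired analysis was possible because there was 1 array in each group, which also means that none could be left out. After subtraction of a loess trend 1 gene, RAD51AP1 (-0.60), passed 1.5-fold downwards, and no gene did so under the other alternatives. The median over the members ran from -0.06 to -0.018 across the alternatives. Of 282 alternative values 281 stayed within the 0.16 median disagreement of same-gene probe sets or, for counts, within 1.5 times. Many of them could not move. The filters leave each gene's own value as it is (48 values with no filter, 34 with the 75th percentile filter). Averaging changes nothing for the 55 of 58 members with 1 probe set. No reported member difference was past 1.5-fold, so a reversal from there could not occur. The sign changed in 6 values, those of MSH5, RAD17 and RAD21, whose reported differences were at most 0.041. Subtracting the median difference of all genes takes 0.026 from every value, which is always less than 0.16. Whether dim probe sets exceed background is unknown.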

Other observations

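The microRNA genes MIR106B, MIR93 and MIR25 lie inside MCM7 in the RefSeq table of GRCh38.p14, and their probe sets were kept apart from the comparison. MCM7 differed by -0.11 between the arrays. The MIR25 probe set read 5.37 under the inhibitor and 5.78 in the control, a difference of -0.41. MIR106B read 4.66 and 5.01, a difference of -0.35, and passed the floor only without the inhibitor. MIR93 read 3.60 and 3.63, below the floor. What these probe sets read, the host transcript or the hairpin, was not tested. The main arms are shown with the seed, bases 2 to 8, in capitals; the first and the second share a seed.
hsa-miR-106b-5p: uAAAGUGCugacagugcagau
hsa-miR-93-5p: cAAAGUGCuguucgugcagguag
hsa-miR-25-3p: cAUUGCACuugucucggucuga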
